A study of Mus musculus with 12 samples.

Results

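Oligodendrocytes are the glial cells that wrap axons in myelin. The genes examined here were 9 genes that mark their lineage, Pdgfra, Cspg4, Olig1, Olig2, Sox10, Mbp, Mag, Cnp and Mog, each taken by the symbol of its Ensembl gene identifier, out of 46603 gene identifiers counted, of which 46005 carried a symbol. All 9 were found in the counts of both stages. RNA was sequenced from microdissected neocortex of C57BL/6J mice that were either wildtype (Chd8+/+) or carried 1 null allele of the chromatin remodeler Chd8 (Chd8+/-), at embryonic day 12.5 (E12.5) and postnatal day 5 (P5), with n = 3 libraries per genotype and stage. The null allele came from deletion of floxed exon 3 by a ubiquitous β-actin Cre, and the Cre transgene was then crossed out, so that every cell of a Chd8+/- animal carried the mutation. Both hemispheres were used at E12.5 and a single hemisphere at P5. The comparisons asked whether these genes differed between genotypes at either stage, how their levels differed between the stages, and whether the genotype difference itself depended on stage.

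In the embryonic forebrain, oligodendrocyte precursors arise first in the ventral telencephalon and migrate into the cortex, with later waves generated dorsally. Precursors express the PDGF receptor and the NG2 proteoglycan and divide in response to PDGF, while the transcription factors Olig1, Olig2 and Sox10 specify the lineage and later switch on myelin genes. Myelin proteins such as Mbp, Mag, Cnp and Mog mark differentiating and mature cells. Several of these genes are not restricted to the lineage: Pdgfra is also expressed by fibroblasts of the meninges, Cspg4 by the mural cells of blood vessels, Olig2 by ventral progenitors and Sox10 by neural crest. In whole tissue, fewer cells of a type and less RNA per cell cannot be told apart.

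The targeted gene, counted over all its exons and not only over the deleted one, was lower in every library labelled Chd8+/-. Chd8 was read at 234, 229 and 235 CPM (counts scaled to TMM library sizes, computed over the 12 libraries) in the Chd8+/+ and at 162, 167 and 161 CPM in the Chd8+/- libraries at E12.5. At P5 it was read at 151, 151 and 145 CPM in Chd8+/+ and at 95.7, 98.6 and 95.01 CPM in Chd8+/-. The genotypes did not overlap, and Chd8 fell by 29.7% at E12.5 (edgeR adjusted p = 0.00562) and fell by 34.5% at P5 (adjusted p = 7.21e-05). Between 38774591 and 54695236 reads were counted per library. Markers of the dorsal cortex were detected at both stages (8 of 8 genes, summed level 900 to 1198 CPM at E12.5 and 607 to 673 CPM at P5). Those of the ventral telencephalon were present too, with a sum of 500 to 632 CPM at E12.5, Nkx2-1 alone between 71.5 and 96.5 CPM, and a sum of 178 to 206 CPM at P5. At E12.5, replicate 2 of Chd8+/- stood apart from the other 5 libraries: its Tcf7l2 level was 156 CPM against 23.7 to 29.7 CPM, its summed meningeal fibroblast markers were 1072 CPM against 512 to 785 CPM, and its dorsal cortex sum was the lowest. Member results that rest on it are given with and without it.

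Between the stages, all 9 genes had higher mean levels at P5 than at E12.5, and in Chd8+/+ neocortex the test called 8 of them as risen, where 41.4% of the 19676 genes tested rose. In Chd8+/- it called 9 of 9 (41.3% of genes rose), of which Olig2 (adjusted p = 0.0415) was lost with some single libraries left out. In Chd8+/+, Olig1 rose 42.1-fold and Mag 21.0-fold, the precursor receptor Pdgfra 4.59-fold and the myelin gene Mog 2.14-fold, whereas Olig2 differed by 5.44% (adjusted p = 0.327). Values of the 2 stages did not overlap in 8 of 9 genes, Olig2 being the exception in both genotypes (41.8% and 41.9% of genes tested lay wholly higher at P5 in Chd8+/+ and Chd8+/-). The median log2 fold change was 2.25 over the 9 genes and -0.02 over all genes tested. The filter on low counts was passed by all 9, but Mag had only 6 to 9 counts per E12.5 library and passed through its P5 counts, so its place among the risen genes follows in part from the filter. The difference between stages cannot be told apart from that between dissections (both hemispheres or 1), collections and sequencing.

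**Figure D1:**
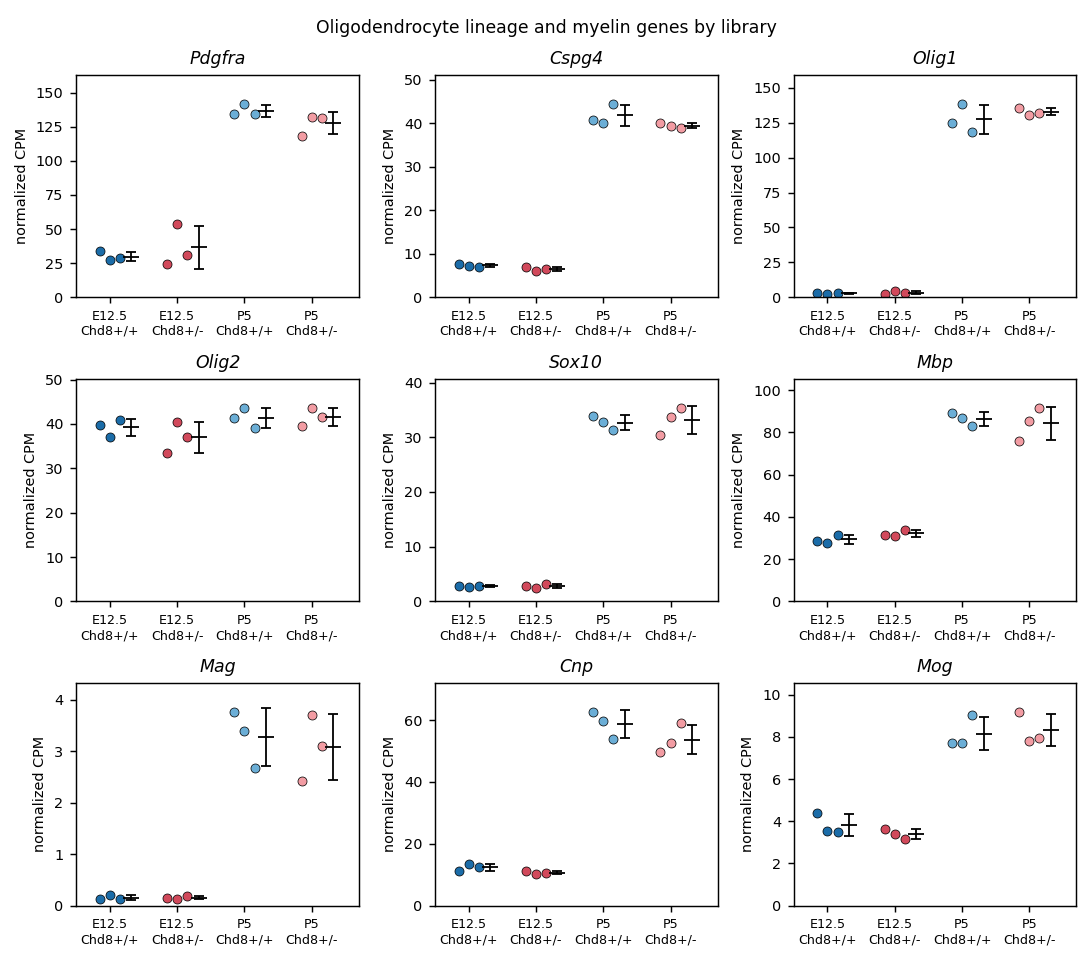
Normalized counts (CPM, linear axes from 0) of the 9 genes in each of the 12 libraries, as points by stage and genotype (E12.5 or P5, Chd8+/+ or Chd8+/-), with the group mean and SD (n = 3) as bars beside them. All genes except Olig2 lie higher at P5 without overlap, and the single high E12.5 point of Pdgfra is replicate 2 of Chd8+/- at 53.9 CPM.

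Among the genes of precursors, Pdgfra (GRCm38 chr5:75152292-75198215, plus strand) encodes the receptor for PDGF-AA, the main mitogen of these cells. It was read at 33.7, 27.0 and 28.7 CPM in Chd8+/+ and at 24.6, 53.9 and 31.0 CPM in Chd8+/- at E12.5. At P5 the values were 134, 142 and 134 CPM in Chd8+/+ and 118, 132 and 132 CPM in Chd8+/-. Every P5 library was above every E12.5 library, by a log2 fold change of 2.20 ± 0.20 (SE) in Chd8+/+ (adjusted p = 7.89e-08) and 1.80 ± 0.19 in Chd8+/- (adjusted p = 6.61e-07), the latter 2.19 without replicate 2 of Chd8+/- at E12.5. Meningeal fibroblasts also express Pdgfra, and the sum of 8 of their markers was lower at P5, 613 to 785 CPM at E12.5 and 325 to 358 CPM at P5 in Chd8+/+, where 3 of them rose and 4 fell. Their part in the Pdgfra difference was not tested. Of the exonic bases of Pdgfra, 6.50% are shared with other annotated genes, whose reads the counting may have left out.

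Cspg4 (chr9:56865104-56899870, plus strand) encodes the NG2 proteoglycan of precursors and pericytes. Its E12.5 values were 7.73, 7.29 and 6.94 CPM in Chd8+/+ and 6.93, 6.02 and 6.61 CPM in Chd8+/-, and its P5 values were 40.8, 40.1 and 44.5 CPM and 40.2, 39.3 and 38.9 CPM. The stages were far apart in both genotypes, with log2 fold changes of 2.51 ± 0.07 (SE) in Chd8+/+ and 2.60 ± 0.07 in Chd8+/- (adjusted p = 6.36e-14 and 5.40e-14). Of 8 mural cell markers in Chd8+/+, 4 rose and 1 fell: the pericyte gene Rgs5 rose from a mean of 31.3 to 150 CPM, Notch3 fell from 162 to 41.5 CPM, and Pdgfrb, the PDGF receptor of pericytes, was at 39.2 and 38.3 CPM. Their sum was at most 305.8 CPM at E12.5 and at least 306.2 CPM at P5, and the part of these markers in the Cspg4 difference was not tested.

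The lineage transcription factors showed the largest and the smallest difference of the set. Olig1 and Olig2 are basic helix-loop-helix factors whose genes are neighbours on chromosome 16, at chr16:91269772-91271933 and chr16:91225550-91228677, 41.1 kb apart and both on the plus strand. Olig1 was read at 3.12, 2.57 and 3.34 CPM in Chd8+/+ and at 2.35, 4.45 and 3.04 CPM in Chd8+/- at E12.5. At P5 it stood at 125, 139 and 119 CPM in Chd8+/+ and at 135, 131 and 132 CPM in Chd8+/-. No library of one stage came near those of the other, and the log2 fold change was 5.39 ± 0.14 (SE) in Chd8+/+ and 5.33 ± 0.14 in Chd8+/- (adjusted p = 5.46e-14 and 6.00e-14). Of the genes tested, 1.88% had a log2 fold change at least as high in Chd8+/+.

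Olig2, which is needed for the lineage to form and is also expressed in dividing ventral progenitors, was read at 39.7, 37.0 and 40.9 CPM in Chd8+/+ and at 33.5, 40.4 and 37.0 CPM in Chd8+/- at E12.5. Its P5 values were 41.4, 43.6 and 39.1 CPM in Chd8+/+ and 39.4, 43.6 and 41.5 CPM in Chd8+/-. The stages overlapped in both genotypes. In Chd8+/+ the log2 fold change was 0.08 (95% interval -0.08 to 0.23, adjusted p = 0.327), and in Chd8+/- it was 0.17 (0.01 to 0.32, adjusted p = 0.0415), a call that was lost when any 1 of 4 libraries was left out (adjusted p up to 0.153: replicate 1 of Chd8+/- at E12.5, replicates 2 and 3 of Chd8+/- and replicate 1 of Chd8+/+ at P5). The 2 stage differences were not shown to differ from each other (interaction, adjusted p = 0.781). Per kilobase of merged exons, the ratio of the Olig1 to the Olig2 level was 0.0784 to 0.124 across the E12.5 libraries and 3.37 to 3.87 across the P5 libraries.

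Sox10 (chr15:79154913-79164490, minus strand) encodes the factor that drives myelin gene transcription. It was read at 2.85, 2.60 and 2.91 CPM in Chd8+/+ and 2.91, 2.44 and 3.16 CPM in Chd8+/- at E12.5, and at 33.9, 32.8 and 31.3 CPM and 30.4, 33.8 and 35.4 CPM at P5. Without overlap, the P5 level was 11.7-fold higher in both genotypes (log2 fold change 3.55 ± 0.09, SE, in each, adjusted p = 3.99e-14 in Chd8+/+ and 4.41e-14 in Chd8+/-). Markers of neural crest and Schwann cells, which also express Sox10, moved in both directions. Of 7 in Chd8+/+, 3 rose and 3 fell, and their sum, 37.7 to 43.9 CPM at E12.5 and 73.6 to 86.3 CPM at P5, was mostly Pou3f1, also a gene of cortical neurons (mean 23.1 and 57.2 CPM in Chd8+/+). Prx, a myelin gene of Schwann cells, fell from 8.21 to 4.45 CPM, and Foxd3, an early neural crest gene, was at 0 counts in every P5 library. Pmp22 and Egr2, on the same list, were higher at P5 in Chd8+/+. Pmp22 went from a mean of 4.70 to 13.8 CPM and Egr2, near the limit of detection at E12.5, from 0.0994 to 2.76 CPM. The part of these markers in the Sox10 difference was not tested.

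Of the myelin genes, Mbp (chr18:82475146-82585637, plus strand) was already present at E12.5, at 28.7, 27.6 and 31.7 CPM in Chd8+/+ and 31.4, 31.1 and 33.9 CPM in Chd8+/-. Its P5 values were 89.2, 86.8 and 82.9 CPM in Chd8+/+ and 76.1, 85.5 and 91.6 CPM in Chd8+/-, 2.94-fold and 2.62-fold higher than at E12.5 (adjusted p = 2.55e-11 and 9.31e-11). The gene also makes golli transcripts, which start far upstream of the classic myelin transcripts and are known from neurons and immune cells. In the GENCODE M21 annotation of GRCm38, 4 of 16 Mbp transcripts start within 1 kb of the gene's start and the other 12 start 79.3 kb or more downstream, and counts per gene do not separate them.

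Cnp (chr11:100574904-100591729, plus strand) encodes the cyclic nucleotide phosphodiesterase of non-compact myelin. It was read at 11.4, 13.4 and 12.4 CPM in Chd8+/+ and 11.1, 10.2 and 10.7 CPM in Chd8+/- at E12.5, and at 62.6, 59.7 and 53.8 CPM and 49.6, 52.5 and 59.0 CPM at P5. The stages did not overlap, and the P5 level was 4.74-fold higher in Chd8+/+ and 5.05-fold higher in Chd8+/- (adjusted p = 2.78e-12 and 2.08e-12). It shares 4.23% of its exonic bases with Dnajc7.

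Mag and Mog encode proteins of the inner and the outermost myelin membrane. Mag (chr7:30899176-30914873, minus strand) was read at 0.135, 0.207 and 0.125 CPM in Chd8+/+ and at 0.153, 0.134 and 0.185 CPM in Chd8+/- at E12.5. At P5 it was read at 3.76, 3.40 and 2.67 CPM in Chd8+/+ and at 2.42, 3.71 and 3.10 CPM in Chd8+/-. Mag was close to the limit of detection at E12.5, entered the comparison of the stages through its P5 counts only and was, without overlap, 21.0-fold higher at P5 in Chd8+/+ and 19.1-fold higher in Chd8+/- (adjusted p = 4.78e-10 and 8.35e-10).

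Mog (chr17:37010743-37023398, minus strand) was read at 4.41, 3.52 and 3.49 CPM in Chd8+/+ and at 3.63, 3.38 and 3.14 CPM in Chd8+/- at E12.5. Its P5 values were 7.73, 7.69 and 9.05 CPM in Chd8+/+ and 9.18, 7.79 and 7.97 CPM in Chd8+/-. Mog thus had the smallest of the called differences in Chd8+/+, 2.14-fold (adjusted p = 5.30e-07), against 2.46-fold in Chd8+/- (adjusted p = 9.65e-08).

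**Figure D2:**
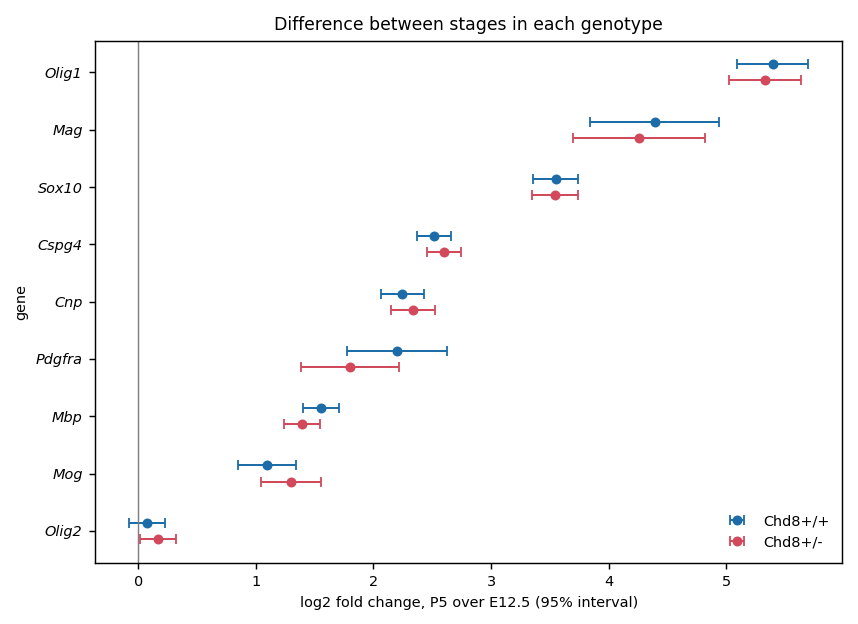
Log2 fold changes of P5 over E12.5 (x axis) for the 9 genes (y axis), with 95% intervals from the edgeR fit of all 12 libraries, in Chd8+/+ and in Chd8+/-. The values run from 0.08 for Olig2 to 5.39 for Olig1 in Chd8+/+, and the intervals of the 2 genotypes overlap for every gene.

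Levels per kilobase of exon (RPKM, from the same CPM and the deposited gene lengths) put the genes in a different order at the 2 stages. These lengths merge the annotated exons of a gene, with any that its expressed transcripts lack, so the order between genes is approximate. In Chd8+/+ at E12.5, Olig2 led at 16.1 ± 0.815 RPKM (SD, n = 3), well above Mbp at 3.49 ± 0.249, Cnp at 3.41 ± 0.288 and Pdgfra at 2.97 ± 0.348, whose values overlapped. Mog at 2.23 ± 0.309, Olig1 at 1.39 ± 0.183, Sox10 at 1.03 ± 0.0607 and Cspg4 at 0.909 ± 0.0492 followed, the last pair overlapping, and Mag stood last at 0.0382 ± 0.0109 RPKM. At P5, Olig1 led at 58.9 ± 4.78 RPKM and did not overlap Olig2 at 16.98 ± 0.917, whose values overlapped those of Cnp at 16.1 ± 1.24. Next came Pdgfra at 13.6 ± 0.442, Sox10 at 12.04 ± 0.481 and Mbp at 10.3 ± 0.376, without overlap between neighbours, then Cspg4 at 5.19 ± 0.294 and Mog at 4.79 ± 0.453, which overlapped, and Mag at 0.805 ± 0.137 RPKM. The order at P5 was the same in Chd8+/-. At E12.5 it differed there in that Pdgfra, at 2.45, 5.38 and 3.09 RPKM, had a higher mean than Cnp (3.64 against 2.92 RPKM), which rested on replicate 2: without it the means were 2.77 and 2.99 RPKM and the order was that of Chd8+/+.

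The promoters of 3 genes show how unlike they are upstream of their starts: Olig2, with the smallest stage difference in both genotypes, Mag, with the largest rise among those with an entry in the promoter table used, and Mog, with the smallest called rise in Chd8+/+. Each sequence is the 250 bases before the start in RefSeq (GRCm38.p6), on the strand of the gene and 5′ to 3′, at chr16:91225300-91225549 (plus) for Olig2, chr7:30914864-30915113 (minus) for Mag and chr17:37023399-37023648 (minus) for Mog. Of 3 starts listed for Mag, the one nearest to the start of the counted gene is shown. Capitals mark ACAANG on either strand, a loose form of the letters that Sox proteins bind, as it allows any base at N.

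Olig2: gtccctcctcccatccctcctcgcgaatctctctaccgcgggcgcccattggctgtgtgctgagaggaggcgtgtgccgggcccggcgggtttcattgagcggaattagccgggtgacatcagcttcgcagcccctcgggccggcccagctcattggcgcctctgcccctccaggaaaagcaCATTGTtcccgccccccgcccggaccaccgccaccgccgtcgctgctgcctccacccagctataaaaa
Mag: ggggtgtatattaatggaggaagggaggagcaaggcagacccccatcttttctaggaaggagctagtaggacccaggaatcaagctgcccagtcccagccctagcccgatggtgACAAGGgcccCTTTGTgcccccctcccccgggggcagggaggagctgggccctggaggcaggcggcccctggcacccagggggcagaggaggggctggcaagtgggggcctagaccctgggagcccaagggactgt
Mog: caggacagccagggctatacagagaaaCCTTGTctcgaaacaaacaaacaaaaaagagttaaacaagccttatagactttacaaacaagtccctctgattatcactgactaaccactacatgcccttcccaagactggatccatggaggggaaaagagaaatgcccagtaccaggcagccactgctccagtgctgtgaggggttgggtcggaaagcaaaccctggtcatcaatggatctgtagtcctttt

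The Olig2 window is rich in CpG, with 22, whereas Mag has 3 and Mog 2, and the median over 32851 mouse promoter windows of the same length was 6. The windows of Pdgfra, Cspg4 and Cnp, which also rose, hold 4, 12 and 13. ACAANG was found once in the windows of Olig2, Mog, Pdgfra and Cnp, 2 times in that of Mag and not in that of Cspg4, and 36.3% of all windows hold it. The windows of the other Mag starts hold 3 and 2 CpG and 2 and 1 matches. The 2 matches of the Mag window shown begin 136 and 126 bases before the start. A match is a description of the letters and not of a bound site.

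Across the 12 libraries, each gene was compared with all others that passed the filter by the root mean square difference of centred log2 CPM. This measure takes in the difference between the stages, so a close gene has a similar stage difference and need not belong to the lineage. The closest gene outside the set was Mylip for Pdgfra (0.14), Csmd2 for Cspg4 (0.07), Crh for Olig1 (0.16), Plod1 for Olig2 (0.05), Adcy2 for Sox10 (0.10), Ncoa7 for Mbp (0.07), D130043K22Rik for Mag (0.17), Tmeff2 for Cnp (0.09) and Vps9d1 for Mog (0.06). Within the set, the closest pair was Cnp and Cspg4, at 0.18. The search outside the set ran over many more genes than the one within it, so the values of the searches are not compared.

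None of the 9 genes passed the test between genotypes. At E12.5, edgeR called 0 of the 8 members tested, where 0.00553% of the 18081 genes tested were called, namely Chd8 alone, and Mag did not pass the filter. At P5 it called 0 of 9, where 0.00536% of 18666 genes were called, again Chd8 alone. For the difference between the stages in the genotype effect it called 0 of 9, and 0.0% of 19676 genes. At an unadjusted threshold of 0.05, edgeR passed 1 member at E12.5 (5.15% of all genes tested), 0 at P5 (17.8%) and 0 in the interaction (10%). DESeq2 called 0 members in each (0.0102%, 5.28% and 0.0245% of genes with an adjusted p). The median log2 fold change of the members was -0.03 at E12.5 and -0.02 at P5, beside 0.00 over all genes at both stages. The labels number the libraries as replicates without naming the animals they came from, so the p-values measure the spread between these samples, which may be technical.

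At E12.5, 2 members, the precursor gene Cspg4 and the myelin gene Cnp, were lower in every Chd8+/- than in every Chd8+/+ library, as were 5.76% of the genes tested (11.4% did not overlap in either direction). Cnp had a log2 fold change of -0.22 (95% interval -0.41 to -0.03, adjusted p = 0.942), and Cspg4 one of -0.17 (-0.38 to 0.05, adjusted p = 0.944). Without replicate 2 of Chd8+/- these were -0.18 and -0.11. Olig2 at -0.09 (-0.25 to 0.08), Mog at -0.17 (-0.48 to 0.13), Mbp at 0.13 (-0.02 to 0.28) and Sox10 at 0.03 (-0.29 to 0.35) overlapped between genotypes. Without replicate 2 of Chd8+/-, Olig2 was at -0.15 and Sox10 at 0.13. Other single libraries mattered too, as Olig2 was at -0.02 without replicate 1 of Chd8+/- and Mog at -0.06 without replicate 1 of Chd8+/+.

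Pdgfra and Olig1 had the widest intervals at E12.5, and both rested on 1 library. Pdgfra was at 0.29 (-0.24 to 0.83, adjusted p = 0.965) and turned to -0.10 without replicate 2 of Chd8+/-, and Olig1 was at 0.12 (-0.37 to 0.62, adjusted p = 0.984) and turned to -0.15. In that library, Pdgfra was 1.88 times and Olig1 1.47 times the median of the other 5 libraries. Nkx2-2, a transcription factor of the ventral neural tube and of oligodendrocyte precursors, was at 6.62 CPM there against 0.103 to 0.463 CPM, and Tcf7l2, an effector of Wnt signaling with high expression in the thalamus, was 5.87 times the median of the others. The meningeal fibroblast sum was 1.57 times that median, and of the 8 markers, all detected, 6 were highest in this library. Most of the sum was Col1a1, Col1a2 and Col3a1 (221, 256 and 461 CPM), whereas Dcn, at 17.3 CPM, lay within the 16.2 to 18.9 CPM of the others and Slc6a13, at 0.872 CPM, was the lowest of the 6. The sums of ventral and dorsal telencephalic markers were 0.826 and 0.812 times their medians. The same library was the lowest of the 6 for Cspg4, Sox10 and Cnp. The part of these other genes in the Pdgfra and Olig1 values was not tested.

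**Figure D3:**
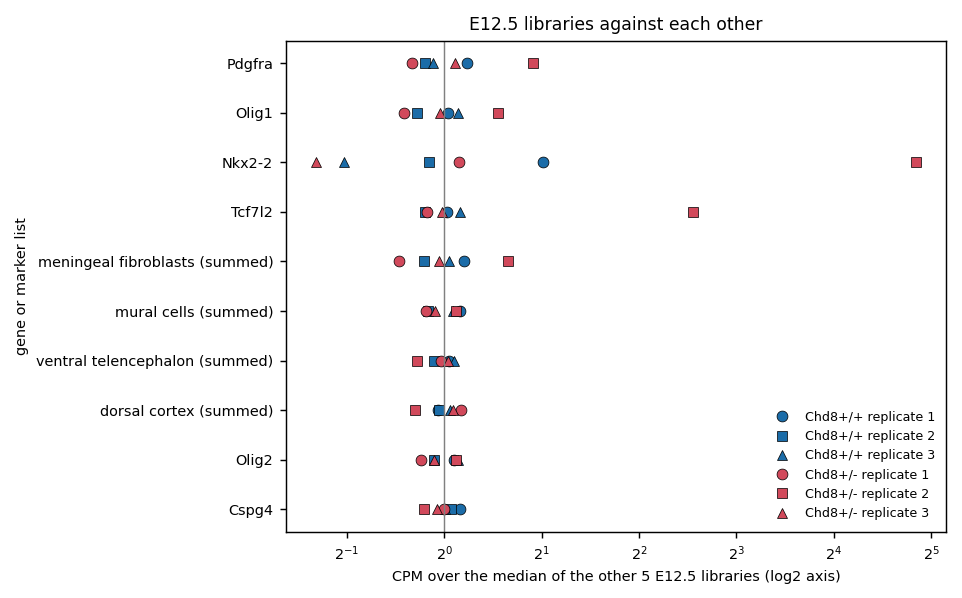
Level of selected genes and summed marker lists (y axis) in each of the 6 E12.5 libraries, as CPM over the median of the other 5 (x axis, log2 scale), with 1 symbol per library. Replicate 2 of Chd8+/- lies to the right for Pdgfra (1.88), Olig1 (1.47), Nkx2-2 (28.8), Tcf7l2 (5.87) and meningeal fibroblasts (1.57), and near 1 for Olig2 (1.09).

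At P5 the differences were small and their intervals narrow. Pdgfra was lower in every Chd8+/- library, as were 14.8% of the genes tested (23.4% did not overlap in either direction), with a log2 fold change of -0.09 (95% interval -0.19 to 0.02, adjusted p = 0.367), and the other 8 members overlapped. Cnp was at -0.11 (-0.27 to 0.04), Cspg4 at -0.07 (-0.18 to 0.05), Mag at -0.08 (-0.46 to 0.30), Mbp at -0.02 (-0.14 to 0.11), Olig2 at 0.02 (-0.10 to 0.14), Sox10 at 0.04 (-0.10 to 0.17), Mog at 0.04 (-0.18 to 0.26) and Olig1 at 0.08 (-0.04 to 0.19). Without replicate 3 of Chd8+/+, Cspg4 was at -0.01 and Olig1 at 0.03, and without replicate 2 of Chd8+/+ Olig1 was at 0.14. Outside Mag, the intervals thus left room for differences of at most 0.27 on the log2 scale in either direction.

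Replicate 1 of Chd8+/- was the lowest of the 6 P5 libraries for Pdgfra, Sox10, Mbp, Mag and Cnp, but the highest for Mog (9.18 CPM), and only 1 library exceeded it for Olig1 (135 CPM). Without it, the log2 fold change was -0.04 for Pdgfra and -0.06 for Cnp, and that of Mag turned to 0.07 and that of Mbp to 0.05. Markers of striatal medium spiny neurons, which lie beneath the cortex, summed to 180 CPM in this library, 211 and 214 CPM in the other Chd8+/- libraries and 241 to 263 CPM in Chd8+/+. All 7 of these markers had lower means in Chd8+/- (7 of 7 at an unadjusted p under 0.05, 0 called by edgeR and 5 by DESeq2), where 17.8% of all genes were at an unadjusted p under 0.05 and DESeq2 called 5.28%. Lower means in Chd8+/- were also found for 8 of 8 markers of the ventral telencephalon (median log2 fold change -0.15) and 7 of 8 of mural cells (-0.08), whereas 7 of 8 markers of meningeal fibroblasts had higher means (0.15). In these 3 lists edgeR called 0 genes, with 2, 2 and 1 at an unadjusted p under 0.05, and DESeq2 called 1, in mural cells. Of 8 dorsal cortex markers, 5 had lower and 3 higher means (median -0.04). Of these 8, 3 were at an unadjusted p under 0.05, edgeR called 0 and DESeq2 called 1, Neurod6. Of 5 neural crest and Schwann cell markers tested, 3 had lower and 2 higher means. The part of these lists in the differences of the members was not tested.

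**Figure D4:**
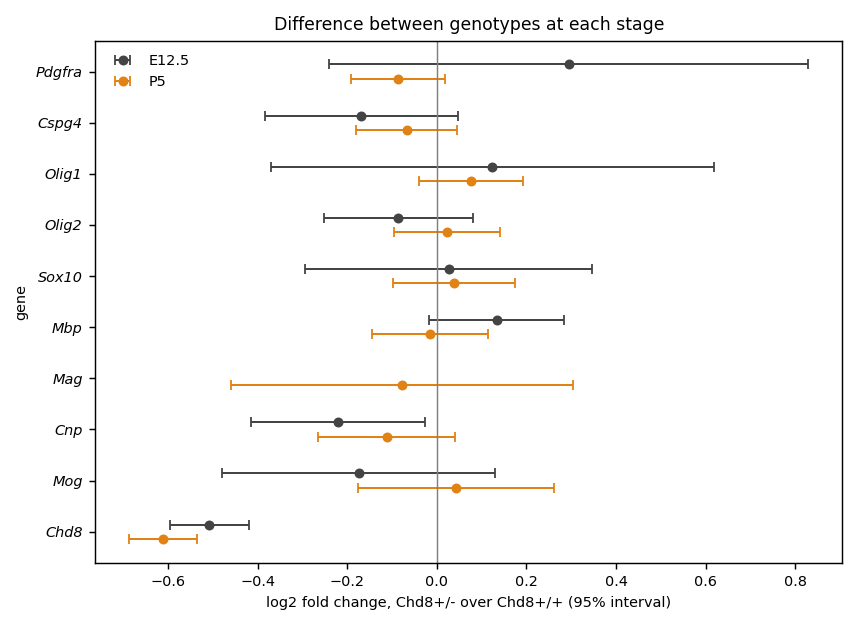
Log2 fold changes of Chd8+/- over Chd8+/+ (x axis) for the 9 genes and Chd8 (y axis), with 95% intervals from edgeR fits of the 6 libraries of each stage (Mag at E12.5 did not pass the filter). The intervals include 0 for all genes except Chd8 and, at E12.5, Cnp (-0.41 to -0.03).

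The genotype effect was not shown to change with stage for any of the 9. The difference of the 2 effects was largest for Pdgfra, at -0.40 (95% interval -0.98 to 0.18, adjusted p = 0.641), and it was 0.00 without replicate 2 of Chd8+/- at E12.5. For Mbp it was -0.16 (-0.38 to 0.05), for Mog 0.20 (-0.15 to 0.56), for Olig2 0.09 (-0.12 to 0.31) and for Mag -0.13 (-1.07 to 0.81), and the remaining 4 lay between -0.07 and 0.09. Without the same library Olig1 turned from -0.07 to 0.22, and Olig2 was at 0.17, Mag at -0.23, Sox10 at -0.10 and Cspg4 at 0.04.

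Other genes of the pathway were grouped by role. In Chd8+/+, 26 of the 38 genes tested (of 39 listed) rose from E12.5 to P5 and 9 fell, with a median log2 fold change of 1.46, where 41.4% of all genes tested rose and 41.7% fell, with a median of -0.02. Of the 38, 7, among them Matn4, Neu4, Enpp6 and Aspa, passed the filter through their P5 counts only, so that they had to be higher at P5. Among the 31 that also passed within E12.5, 19 rose and 9 fell, with a median of 0.61. Opalin, a late myelin gene, did not pass the filter. Pdgfa, which encodes the ligand of Pdgfra in the developing cortex, rose from 6.71 ± 0.67 to 35.3 ± 2.38 CPM (SD, n = 3), 5.25-fold, while Pdgfc, another ligand of the receptor, fell from 14.01 ± 1.12 to 9.76 ± 0.793 CPM.

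The 4 other precursor genes that passed within E12.5 rose, by a median log2 fold change of 3.50. With Matn4 and Neu4, which entered through their P5 counts, the median of the 6 was 4.73, the same with Neu4 at its lower bound. Gpr17, a receptor of committed precursors, rose 31.5-fold, from 3.45 ± 0.583 to 109 ± 7.07 CPM, and Lhfpl3 22.4-fold. Matn4 was 77.4-fold higher from 6 counts per E12.5 library, and the sialidase gene Neu4, at 0 counts in all E12.5 libraries and 3.08 to 4.10 CPM at P5, was at least 44.6-fold higher against a floor of 3 counts per library. Pcdh15 (5.75-fold) and C1ql1 (2.54-fold) rose least.

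Among 8 transcription factors, 5 rose and 2 fell. Nkx2-2 rose 20.6-fold, Sox8, a relative of Sox10, 2.58-fold, Myrf, the regulator of myelin genes, 1.499-fold and Zfp488 1.31-fold, while Nkx6-2 fell from 2.09 ± 0.243 to 0.125 ± 0.0515 CPM. Tcf7l2 was uneven at P5 as well, at 20.6 CPM in replicate 1 of Chd8+/+ and 3.98 to 7.19 CPM in the other 5 libraries.

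Of the 6 inhibitors of differentiation, Id4 fell from 283 ± 18.8 to 33.1 ± 2.5 CPM, and Sox6, the Notch effector Hes5 and Sox5 also fell (log2 fold changes -1.84, -1.47 and -0.24), whereas Lingo1 rose 15.4-fold and Id2 3.21-fold. These genes are expressed by neural progenitors or neurons too.

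The 3 premyelinating genes that passed within E12.5 rose, Bcas1 34.0-fold, Itpr2 5.63-fold and Sirt2 1.53-fold, and Enpp6, which entered through its P5 counts, was 33.7-fold higher from 2 to 6 counts per E12.5 library. Of 13 further genes of myelin and mature cells, 12 were tested, 8 rose and 2 fell, and of the 8 that also passed within E12.5, 4 rose and 2 fell, a share of rises near that of all genes. Aspa, Gjb1 and Fa2h entered through their P5 counts, and Aspa was 24.99-fold higher from 2 to 4 counts per E12.5 library. The connexin gene Gjb1 had 0, 0 and 6 counts in the Chd8+/+ libraries at E12.5 and 68, 70 and 58 at P5. Fa2h, an enzyme of myelin lipid synthesis, had 2 counts in all at E12.5 and 270 at P5, a ratio of 136 (exact 95% counting interval 37.2 to 1126). Mobp and Ermn, both late myelin genes, fell instead (log2 fold changes -2.90 and -2.04), from 1.85 ± 0.288 to 0.245 ± 0.0402 CPM and from 5.07 ± 0.353 to 1.23 ± 0.0962 CPM.

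**Figure D5:**
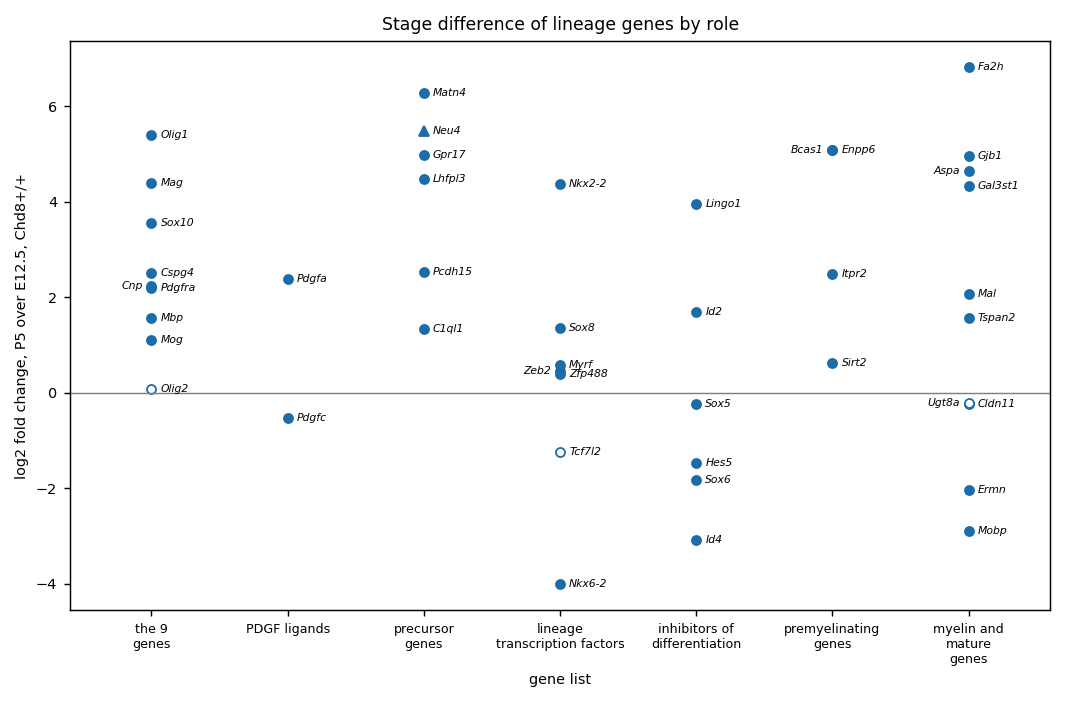
Log2 fold changes of P5 over E12.5 in Chd8+/+ (y axis) for the 9 genes and the reported genes of 6 lists of other lineage genes (x axis), filled where the adjusted p was under 0.05. Neu4 (triangle) is drawn at its lower bound of 5.48, precursor and premyelinating genes all lie above 0, and Mobp, Ermn and 4 inhibitors of differentiation lie below it.

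Between genotypes, edgeR called 0 of 31 of these other genes at E12.5, with 3 at an unadjusted p under 0.05 beside 5.15% of all genes tested, and DESeq2 called 0 of the 37 to which it gave an adjusted p. At P5 edgeR called 0 of 37, with 11 at an unadjusted p under 0.05 beside 17.8% of all genes, and DESeq2 called 1 of 28 beside 5.28% of all genes. Among the smallest p at E12.5 were those of Id2 (log2 fold change 0.27) and Nkx2-2 (3.06), both with an edgeR adjusted p of 0.942, and Nkx2-2 was high only in replicate 2 of Chd8+/-, without which it was at -0.68 (adjusted p = 0.9). At P5 the smallest belonged to Hes5 (0.22, adjusted p = 0.133), Sox6 (-0.18, adjusted p = 0.137) and Enpp6, a gene of newly forming oligodendrocytes (-0.50, adjusted p = 0.15). The call by DESeq2 was Id4, singled out after its values were seen, at 35.7, 32.8 and 30.8 CPM in Chd8+/+ and 20.5, 29.6 and 27.7 CPM in Chd8+/- (edgeR log2 fold change -0.34, adjusted p = 0.174), without overlap.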

How the data were processed

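The authors trimmed paired-end reads of mRNA-selected dUTP libraries with Trim Galore 0.4.1, aligned them to GRCm38 with TopHat2 2.1.0 and counted them on Ensembl genes with featureCounts 1.5.0. They deposited raw counts per gene and run, without normalization, and the merged exon length of each gene in bases. No strand option was set in the counting command recorded for P5, and the command for E12.5 is not recorded, so reads of overlapping genes may be lost. The 2 runs of each library, whose chi-squared statistic over its degrees of freedom was 1.17 to 1.51 (6.58 to 45.4 between libraries of a group), were summed. Depth was 38774591 to 54695236 counts per library, and the biological coefficient of variation was 9.18% at E12.5 and 7.42% at P5.

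Genotypes were compared within each stage, and stages and the interaction over all 12 libraries with 1 coefficient per group, by the quasi-likelihood test of edgeR 4.0.16 (R 4.3.3) with TMM, filterByExpr and Benjamini-Hochberg adjustment over all genes tested, threshold 0.05. CPM use TMM library sizes over 12 libraries, and RPKM divide them by length. Standard errors and 95% intervals come from the same fits. The procedure was tested on simulated counts. The alternatives were DESeq2 1.42.0, its scaling, no filter, length offsets (loess in R), all 12 libraries in 1 model, a replicate block and each library left out. Promoters came from a RefSeq table (GRCm38.p6), which held 6 of the 9 genes. Named genes are the 9 members, other lineage genes among the 3 highest and 3 lowest called stage changes of their role group in Chd8+/+ or the 3 smallest p between genotypes at each stage, and the nearest genes by pattern. Some genes that this rule would name are not reported here, and the counts over lists include them. Python 3.11.15 with pandas 2.3.3 (tables) and matplotlib 3.10.9 (plots) was used throughout. The members and lists were chosen with earlier results of these data known.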

Additional observations from a re-analysis of the deposited data

How the results depend on the processing

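No member was called between genotypes at either stage or in the interaction under any alternative run, and 8 members rose between the stages in Chd8+/+ under every one, Olig2 being the exception. In Chd8+/-, 8 or 9 rose with a library left out. Counts over all genes moved more. At E12.5, 1 gene was called, against 3 with DESeq2, 13 with all genes that had a count, 2 with all 12 libraries in 1 model and 0 to 2 with a library left out. At P5, 1 gene was called, against 653 with DESeq2, 995 with all genes that had a count, 4 with all 12 libraries in 1 model, 6 with length offsets and 1 to 327 with a library left out, the most without replicate 2 of Chd8+/-. In the interaction, 0 genes were called, against 8 with DESeq2, 17 with all genes that had a count and 0 to 2 with a library left out. The cause was not tested. With the replicate number as a block, 0 genes were called at E12.5 and 4 at P5. The numbers are not shown to pair the libraries, as same-numbered libraries correlated at -0.23, -0.10 and -0.09 at E12.5 and at 0.23, 0.11 and 0.04 at P5.

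Small genotype differences changed sign. With length offsets, the P5 log2 fold changes were -0.0093 for Olig2, -0.011 for Mog and 0.0304 for Mbp. With a library left out, those at E12.5 ran from -0.10 to 0.51 for Pdgfra, -0.15 to 0.31 for Olig1 and -0.0622 to 0.13 for Sox10. At P5 they ran from -0.23 to 0.0653 for Mag, -0.0339 to 0.13 for Mog, -0.0696 to 0.0529 for Mbp, -0.0134 to 0.0602 for Olig2 and -0.0015 to 0.10 for Sox10. In the interaction they ran from -0.59 to 0.00034 for Pdgfra, -0.36 to 0.0327 for Mag, -0.10 to 0.11 for Sox10 and -0.22 to 0.22 for Olig1. Mag, at 6 to 9 counts per E12.5 library, is too shallow there to show a small genotype difference.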
